A study of Homo sapiens with 6 samples.

Results

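The TRPM channels are the melastatin branch of the transient receptor potential (TRP) cation channels, and the human genome encodes 8 of them, TRPM1 to TRPM8. The members were chosen by name, and peaks were assigned to the family when they overlapped the GENCODE version 44 body of a member or lay within 20 kb of it. This selected 20 of the 30784 H3K27ac peaks, at 8 of 20033 protein-coding genes. Acetylation of this lysine of histone H3 is found at active promoters and enhancers. It was mapped by chromatin immunoprecipitation followed by sequencing (ChIP-seq) in the cell line SU-CCS-1, derived from a human clear cell sarcoma (CCS), whose labelled genotype is the EWSR1::ATF1 (EA1) fusion, present in the ChIP and the input samples alike. The 3 H3K27ac samples and the 3 input samples, which are chromatin sequenced without immunoprecipitation, came from this line alone, and the labels name no treatment, time point or second genotype. Whether the samples came from separate cultures is not stated. The deposited intervals form 1 merged list with no value for any sample, so no peak has a replicate error, no difference could be tested, and the read depth is unknown. Counts of members are therefore set beside the same count over all protein-coding genes or all peaks. A locus without an interval was below the cutoff used in calling or was removed after it, which is not a measurement of no acetylation.

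The labelled cell type was checked against marker genes. A promoter peak, here any peak with a base within 3 kb of any transcript start of a gene, was present at 6 of 8 melanocytic and CCS markers, with intervals of up to 18040 bases at SOX10, 5530 bases at PMEL and 3390 bases at MITF. TYR and TYRP1, which encode melanin synthesis enzymes, had none. Promoter peaks were listed at 0 of 5 epithelial, 0 of 5 skeletal muscle, 0 of 4 lymphoid and myeloid and 0 of 3 endothelial markers. Of these, the lymphoid and myeloid marker PTPRC and the endothelial marker VWF each had 1 peak in the body.

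TRPM proteins assemble as tetramers with a pore that passes cations, and the members differ in what opens them. TRPM1 (melastatin) is known from melanocytes, where its gene is a target of MITF, and from retinal ON bipolar cells, where it carries the light response. TRPM3 is a heat- and steroid-activated calcium channel. TRPM6 and TRPM7 carry a protein kinase on the same chain as the channel and pass magnesium. TRPM4 and TRPM5 are opened by intracellular calcium and pass sodium and potassium but not calcium, with TRPM5 best known from taste cells. TRPM2 is opened by ADP-ribose during oxidative stress, and TRPM8 is the cold and menthol receptor of sensory neurons. The introns of TRPM1 and TRPM3 host closely related microRNAs.

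H3K27ac was listed at the promoters of TRPM3, TRPM4, TRPM6, TRPM7 and TRPM8, and no interval touched the bodies of TRPM1, TRPM2 or TRPM5. The 5 of 8 members with a promoter peak stood beside 63.4% of all protein-coding genes. The same 5 genes held every interval inside a member's body, beside 64.6% of protein-coding genes with a body peak, 76.5% of those at least as long as the shortest member (TRPM5, 40.0 kb) and 77.8% of those of 100 kb or more, among which 4 of 5 members had one. All 8 members had a peak in the body or within 20 kb, as did 75.8% of protein-coding genes. No member had a body peak without a promoter peak, a state found in 2.84% of protein-coding genes. The promoter count was thus at the share of all genes, and the members differed among themselves in where the promoter interval lay. Counting only the start site of the canonical transcript, the representative transcript tagged in the annotation, left 3 members with a promoter peak (TRPM4, TRPM6 and TRPM7), beside 59.9% of protein-coding genes. At TRPM3 and TRPM8 the promoter interval lay at internal start sites.

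**Figure D1:**
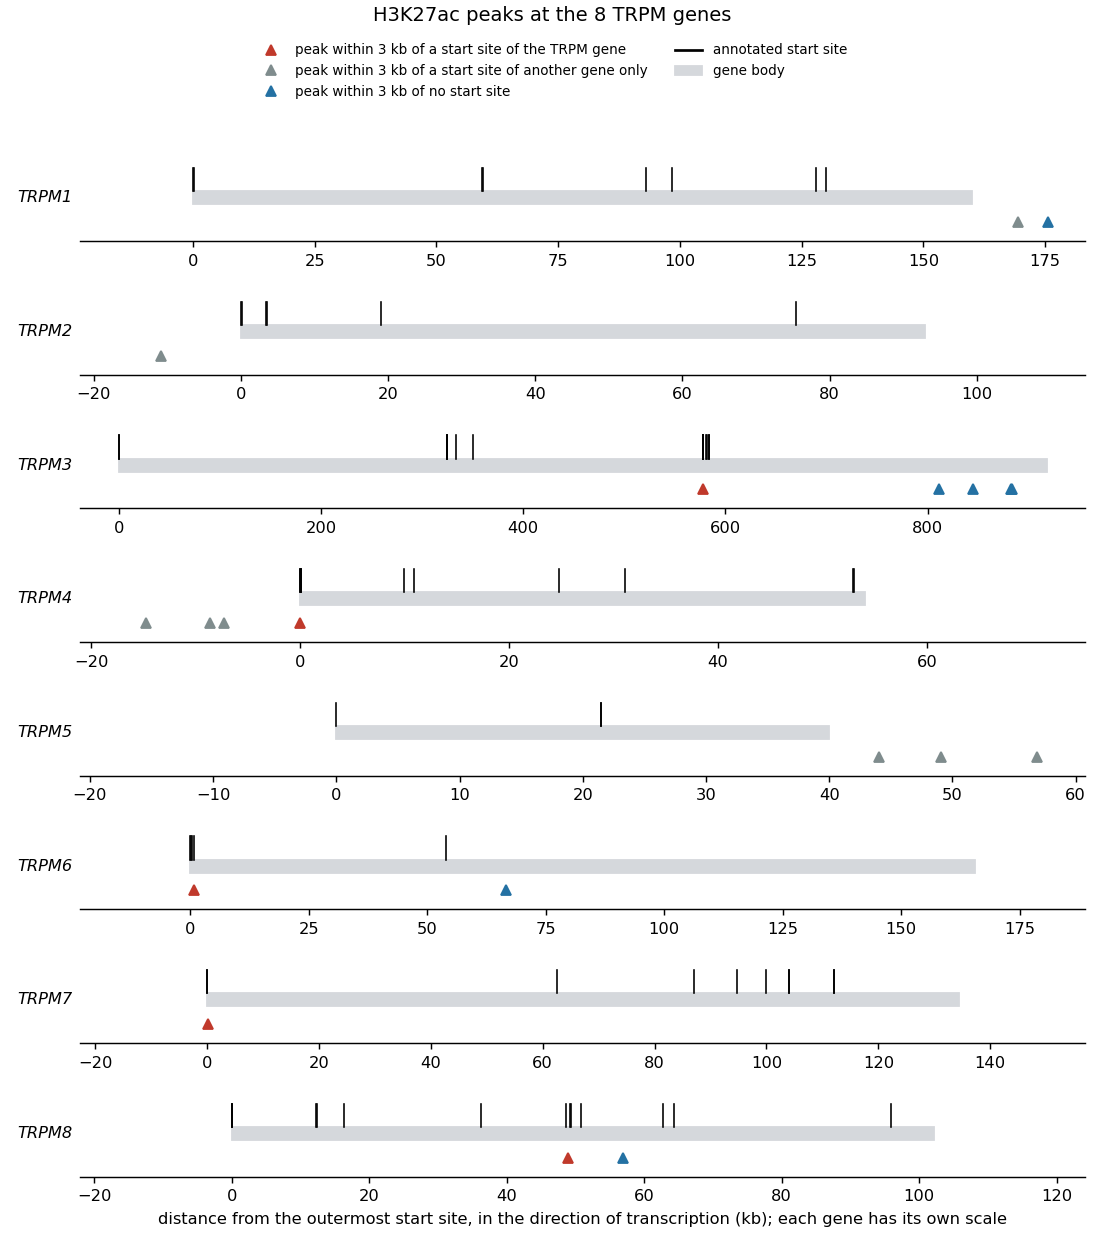
Each row is a TRPM gene drawn from its outermost start site (0) in the direction of transcription, in kb on its own scale, with the gene body as a bar, annotated start sites as ticks and the 20 peaks of the family as triangles coloured by the start sites within 3 kb. TRPM3, TRPM4, TRPM6, TRPM7 and TRPM8 have a red triangle at a start site of their own, and the bodies of TRPM1, TRPM2 and TRPM5 hold no triangle.

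Of the 20 peaks, 11 overlapped a member's body and 9 lay in the flanks. In the flanks, 8 of 9 were within 3 kb of a start site of a neighbouring gene, and over the whole family 10 peaks were. Of all 20 peaks, 7 were near no GENCODE start site of any gene. The other 13 compare with 61.3% of the list as a whole that lay near one. Start sites here and below are those of GENCODE unless RefSeq is named. Inside the bodies, 9 of 11 peaks had their midpoint in an intron of the canonical transcript and 6 lay near no GENCODE start site. Among these 6, a TRPM8 peak lay 1.78 kb from a RefSeq start site.

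TRPM1 lies on chromosome 15 from 31001065 to 31161160 on the minus strand, and its 160 kb held no interval. Its 8 annotated start sites were between 38.6 and 109 kb from the nearest peak. The canonical start site, at 31101725, was the farthest at 109 kb, and the outermost start site, at 31161160, lay 53.9 kb from a peak upstream of the gene. The whole gene sat in a peak-free stretch of 222 kb (chr15:30992771-31215050), longer than 91.0% of the 30760 gaps between neighbouring peaks, whose median was 17.9 kb. The only intervals within reach lay past the 3′ end. The nearer one (chr15:30990851-30992770, 1920 bases) covered the start sites of MTMR10, which encodes a myotubularin-related protein, and of the lncRNA gene ENSG00000259720, which runs into TRPM1 on the opposite strand. The second (chr15:30984761-30986380, 1620 bases) was near no start site and wider than 81.3% of such peaks. MITF itself had 2 promoter peaks in the same list.

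The RefSeq promoter windows of TRPM1, 250 bases before to 50 after each start site, are of interest because MITF binds E-boxes such as CATGTG. Both windows held CATGTG once, in its reverse-complement form CACATG on the gene strand, and neither overlapped a peak. The window at the canonical start site (chr15:31101676-31101975, minus strand, GRCh38.p14, gene strand printed 5′ to 3′) is given here with the match in capitals.

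TRPM1 canonical promoter: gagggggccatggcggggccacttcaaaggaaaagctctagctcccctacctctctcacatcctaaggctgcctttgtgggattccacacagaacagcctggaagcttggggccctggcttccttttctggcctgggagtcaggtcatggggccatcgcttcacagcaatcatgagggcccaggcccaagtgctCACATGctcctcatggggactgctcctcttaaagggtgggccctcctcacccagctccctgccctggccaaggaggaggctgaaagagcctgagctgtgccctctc

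TRPM1 and TRPM3 each host a microRNA in an intron of the canonical transcript, MIR211 in intron 7 of TRPM1 (chromosome 15, 31065032 to 31065141) and MIR204 in intron 6 of TRPM3 (chromosome 9, 70809975 to 70810084), both transcribed from the minus strand like their hosts. The mature 5p sequences are printed because they are the closest shared product of the genes. They share the seed, positions 2 to 8 in capitals, and have 20 of 22 positions alike.

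hsa-miR-204-5p: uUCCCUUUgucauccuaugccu

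hsa-miR-211-5p: uUCCCUUUgucauccuucgccu

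The hosts of these sister microRNAs differed in the nearest interval upstream. For MIR204 it was the internal promoter peak of TRPM3, 58.6 kb upstream on the transcribed strand. For MIR211 the nearest interval upstream was 150 kb away and outside TRPM1, and the nearest on either side was 72.4 kb away, at the start sites of MTMR10. No peak lay within 3 kb of the start of either microRNA gene.

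TRPM3 spans 918 kb of chromosome 9 (70529060 to 71446904, minus strand) and held 5 peaks, more than any other member had in its body. They summed to 4260 bases, which is more than in 91.5% of protein-coding genes. Its share of 0.464% of the body was higher than in only 38.9% of them, since the gene is long. In the order of protein-coding genes by bases of body in peaks, PYM1 (4260 bases) and ENSG00000257341 (4262 bases) stood just above TRPM3, and NHS (4251 bases) and ENSG00000273398 (4250 bases) just below.

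The promoter peak of TRPM3 was internal. The interval chr9:70868711-70869280 (570 bases) lay 578 kb downstream of the outermost start site, at 63.0% of the gene length and in intron 1 of the canonical transcript, and it contained 6 of the 17 annotated start sites. It was narrow, wider than 14.5% of the peaks near start sites. A further 4 start sites lay 3.24 to 5.80 kb from it. The canonical start site was 252 kb from the nearest peak and the outermost 321 kb. The 7 start sites in the upstream part of the gene fell in a peak-free stretch of 898 kb (chr9:70869281-71767670) that covered 62.9% of the gene and exceeded 98.3% of all gaps in length. The central 300 bases of the internal promoter peak (chr9:70868846-70869145, hg38, plus strand, opposite to the gene) are printed because this is the only interval at a TRPM3 start site. Capitals mark a match to TGANNTCA, the flexible form of the ATF/CREB motif that the study examined.

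TRPM3 internal promoter peak: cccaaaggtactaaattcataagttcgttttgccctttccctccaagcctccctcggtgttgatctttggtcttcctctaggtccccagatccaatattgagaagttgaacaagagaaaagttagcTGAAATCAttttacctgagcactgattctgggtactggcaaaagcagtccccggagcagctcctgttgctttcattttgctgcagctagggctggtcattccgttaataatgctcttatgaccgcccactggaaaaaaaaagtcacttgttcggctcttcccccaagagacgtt

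The other 4 TRPM3 peaks lay in the 3′ part of the gene, from 88.4 to 96.2% of its length, and near no start site. They were in introns 11, 20 and 22 of the canonical transcript, which has 26 exons. The widest, chr9:70600521-70602450 in intron 20, measured 1930 bases and was wider than 86.1% of peaks away from start sites. A pair in intron 22 (chr9:70563271-70563950 and chr9:70564221-70564870, 680 and 650 bases) was separated by 270 bases. The interval in intron 11 (chr9:70635281-70635710) measured 430 bases, wider than 6.90% of its class, and between it and the internal promoter peak 233 kb held no interval. The central 300 bases of the widest intronic peak (chr9:70601336-70601635, plus strand) follow, with its TGANNTCA match in capitals.

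TRPM3 intron 20 peak: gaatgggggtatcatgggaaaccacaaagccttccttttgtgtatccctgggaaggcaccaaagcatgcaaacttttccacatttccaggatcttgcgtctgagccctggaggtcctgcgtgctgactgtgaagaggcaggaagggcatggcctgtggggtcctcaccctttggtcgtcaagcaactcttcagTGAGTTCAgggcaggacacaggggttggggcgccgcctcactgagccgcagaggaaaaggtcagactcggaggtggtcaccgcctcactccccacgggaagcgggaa

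The channel-kinase genes TRPM6 and TRPM7 both had a peak at their 5′ end. The TRPM7 interval (chr15:50685821-50687510, 1690 bases) contained the canonical start site and 2 of 10 annotated start sites in all, had its midpoint 131 bases into the gene, and was wider than 66.9% of peaks near start sites. It was the widest promoter peak of the family. It also covered a start site of ENSG00000288645, a protein-coding gene annotated within TRPM7 on the same strand, and lay 1.39 kb from RN7SL354P, a signal recognition particle RNA pseudogene. The remaining 8 start sites lay 61.6 to 111 kb from a peak, in a stretch of 261 kb without intervals that took in 99.3% of the gene.

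The TRPM6 interval (chr9:74887031-74887470, 440 bases) was the opposite in width, wider than only 4.16% of peaks near start sites. It contained 1 start site and lay 0.451 kb downstream of the canonical start site, with 4 of 5 start sites within 3 kb. A second interval (chr9:74821291-74821750, 460 bases) lay in intron 8, 66.6 kb downstream of the outermost start site and near no start site. Beyond it the list held no peak for 1687 kb (chr9:73133841-74821290), longer than 99.4% of gaps, and this stretch took in 59.7% of the gene. The share of the body in peaks was 0.727% for TRPM7 and 0.543% for TRPM6. For TRPM7 it was 0% without bases within 3 kb of another gene's start site.

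The promoter windows that overlapped these peaks are printed for comparison (GRCh38.p14, gene strand, 5′ to 3′). That of TRPM7 (chr15:50686748-50687047) held the E-box CACGTG at 2 places, in capitals, and that of TRPM6 (chr9:74887298-74887597, at the start site inside the peak) held none of the motifs searched.

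TRPM7 promoter: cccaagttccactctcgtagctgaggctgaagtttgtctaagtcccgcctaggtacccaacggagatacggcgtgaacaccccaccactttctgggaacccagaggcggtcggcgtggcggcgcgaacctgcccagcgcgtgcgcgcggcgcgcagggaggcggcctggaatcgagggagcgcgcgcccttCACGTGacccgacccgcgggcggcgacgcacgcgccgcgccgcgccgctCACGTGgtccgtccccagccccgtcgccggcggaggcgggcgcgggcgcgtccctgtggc

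TRPM6 promoter: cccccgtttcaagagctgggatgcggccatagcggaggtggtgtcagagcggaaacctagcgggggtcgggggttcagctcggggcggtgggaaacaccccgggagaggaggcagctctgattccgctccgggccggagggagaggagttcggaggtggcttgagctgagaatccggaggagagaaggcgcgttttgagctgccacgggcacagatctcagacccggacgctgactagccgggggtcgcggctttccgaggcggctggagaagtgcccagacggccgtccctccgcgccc

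The calcium-activated pair TRPM4 and TRPM5 differed. TRPM4 (chromosome 19, 49157741 to 49211836, plus strand, 54.1 kb) had a promoter peak of 1360 bases (chr19:49157081-49158440) that contained the canonical start site and 5 of 11 start sites in all, and was wider than 53.5% of peaks near start sites. The start site of HRC, which encodes a histidine-rich calcium-binding protein of the sarcoplasmic reticulum, lay 1.69 kb from the same peak. The 3 flank peaks upstream of TRPM4 (1120, 550 and 1580 bases) were each within 3 kb of a start site of PPFIA3, which encodes a liprin scaffold protein of synapses. These were start sites of shorter transcripts in the 3′ part of PPFIA3, which begins at 49119544 and ends at 49151026 on the plus strand. The widest of the 3 peaks was also within 3 kb of HRC. The other 98.7% of TRPM4 held no interval. Its share of the body in peaks was 1.29%, below the median protein-coding gene (1.45%). It was 0.0813% without bases within 3 kb of another gene's start site, so its place as the highest among the members rested on sequence shared with the HRC promoter window. The TRPM4 promoter window (chr19:49157542-49157841, plus strand) lies wholly in its peak and held none of the motifs searched.

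TRPM4 promoter: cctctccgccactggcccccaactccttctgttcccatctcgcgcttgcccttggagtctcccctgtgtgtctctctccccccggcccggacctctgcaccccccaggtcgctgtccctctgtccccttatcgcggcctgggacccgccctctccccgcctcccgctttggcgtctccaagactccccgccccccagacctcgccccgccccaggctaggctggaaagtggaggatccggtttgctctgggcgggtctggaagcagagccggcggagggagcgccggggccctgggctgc

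TRPM5 (chromosome 11, 2404515 to 2444514, minus strand) had no interval in its body, and its canonical start site was 42.3 kb from a peak and the other 2 start sites 20.8 kb. Past its 3′ end lay 3 peaks of 3530, 560 and 3610 bases (chr11:2385891-2389420, chr11:2395181-2395740 and chr11:2398631-2402240), the widest of the family among them. All were within 3 kb of start sites of CD81, which encodes a tetraspanin of the cell surface, and the last also of TSSC4 and ENSG00000230483. The CD81 start sites in question were internal, since the gene runs from 2376177 to 2397802 on the plus strand. KCNQ1, the potassium channel gene that begins next to the TRPM5 canonical start site on the opposite strand, had no promoter peak. The gene lay in a stretch of 272 kb without intervals (chr11:2402241-2674450).

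TRPM2 (chromosome 21, 44350163 to 44443081, plus strand, 92.9 kb) also had no interval in its body. Its 6 start sites lay 9.78 to 85.2 kb from the nearest peak, and a stretch of 461 kb without intervals (chr21:44340381-44801320), longer than 95.9% of gaps, contained the gene. The single flank peak (chr21:44338151-44340380, 2230 bases) lay upstream, at the start sites of CFAP410, which encodes a protein of cilia, and of the lncRNA gene ENSG00000232969. TRPM2-AS, the antisense gene inside TRPM2, had no promoter peak, and its start site was 76.4 kb from an interval.

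TRPM8 (chromosome 2, 233917373 to 234019522, plus strand, 102 kb) had 2 narrow peaks in the middle of its body. The first (chr2:233966061-233966470) measured 410 bases and was wider than 1.08% of peaks near start sites. It contained no start site but lay 79 bases from an internal one, and 4 of 14 start sites were within 3 kb. Its midpoint was in intron 14 of a canonical transcript with 26 exons, and the canonical start site was 48.7 kb upstream. The second (chr2:233973991-233974650, 660 bases) lay in intron 17 and 5.47 kb from the nearest GENCODE start site. A RefSeq start site of TRPM8, at 233976428, lay 1.78 kb from this second peak. The peaks covered 1.05% of the body. TRPM8 met the rule for a promoter peak only through internal start sites.

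Over the family, 21 of 74 annotated start sites lay within 3 kb of a peak and 14 lay inside one. These shares, 28.4% and 18.9%, stood beside 51.7% and 41.1% of the 146431 start sites of all protein-coding genes, where start sites of a gene often lie close together and are not independent. The 14 were divided among TRPM3 (6), TRPM4 (5), TRPM7 (2) and TRPM6 (1). Canonical start sites fell into separate ranges, inside a peak for TRPM4 and TRPM7, 0.451 kb away for TRPM6, 13.2 kb for TRPM2, 42.3 kb for TRPM5, 48.7 kb for TRPM8, 109 kb for TRPM1 and 252 kb for TRPM3.

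**Figure D2:**
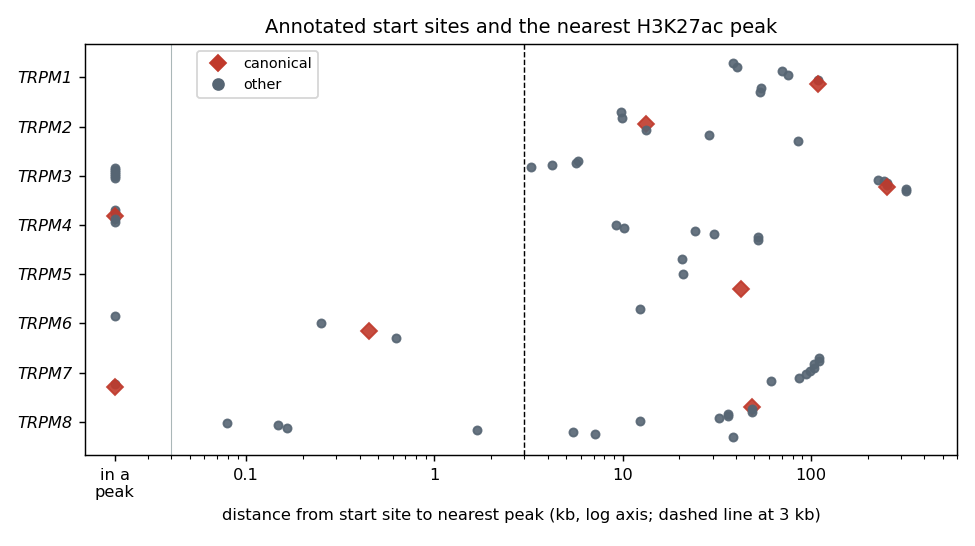
Each point is an annotated start site of a TRPM gene, placed by its distance to the nearest H3K27ac peak in kb on a log axis, with start sites inside a peak at the left and canonical start sites as red diamonds. The canonical start sites of TRPM4 and TRPM7 are inside a peak, that of TRPM6 is 0.451 kb away, and those of the other members lie right of the dashed 3 kb line.

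The peaks of the family were 410 to 3610 bases wide, with a median of 900 bases beside 1060 bases for the whole list. Peaks near a start site had a median of 1270 bases in the whole list and the others 770 bases. The promoter peaks of the members were below the first median at TRPM3, TRPM6 and TRPM8 and above it at TRPM4 and TRPM7. The 6 peaks in members' bodies near no GENCODE start site measured 430 to 1930 bases, with a median of 655. With the widest 50% of all peaks alone, 2 of 8 members (TRPM4 and TRPM7) had a promoter peak, beside 49.0% of protein-coding genes. With the widest 25%, 0 of 8 had one, beside 26.9%.

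**Figure D3:**
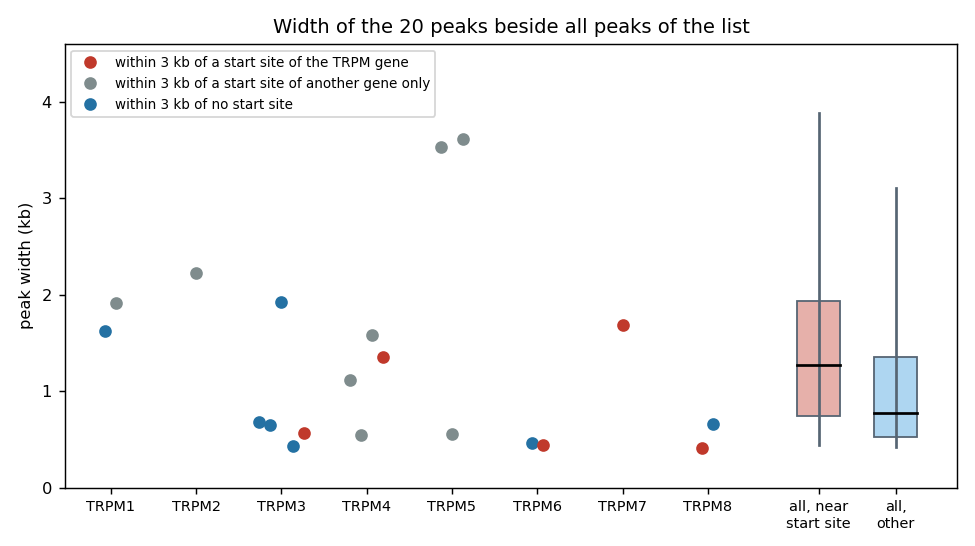
Width in kb of the 20 peaks by member, coloured by the start sites within 3 kb, beside all peaks of the list near a start site and all others (line, 5% to 95% of peaks, box, quartiles, bar, median). The promoter peaks of TRPM3, TRPM6 and TRPM8 measure 570, 440 and 410 bases, and those of TRPM4 and TRPM7 measure 1360 and 1690 bases.

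The 8 bodies together span 1667 kb, of which 7907 bases (0.474%) were in peaks. Over all protein-coding genes together 2.39% of body sequence was in peaks. The median protein-coding gene was 27.5 kb long with 727 bases in peaks. Lengths differ, and each of the 5 members with a body peak had a share under the median gene, from 0.464% at TRPM3 to 1.29% at TRPM4.

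Neighbouring peaks were stitched at the distance of the study, the first step by which super-enhancers were defined in the study. This gave 17049 regions, of which 12 lay in or within 20 kb of a TRPM gene. When regions were ranked by the summed width of their peaks, 879 lay past the point where the scaled curve reaches a slope of 1 (7.97 kb). Of the 12, only the region beside TRPM5 did so, with 5 peaks summing to 12910 bases (chr11:2377001-2402240, rank 371), and it did not touch the TRPM5 body. Such a region in the body or within 20 kb was present at 1 of 8 members beside 9.87% of protein-coding genes. The call ended when peaks lying entirely inside 2.5 kb windows around start sites were dropped, with 0 of 8 members beside 3.71% of protein-coding genes. The next in rank was the region of 4 peaks that runs from PPFIA3 to the TRPM4 promoter (summed width 4610 bases, rank 2055). The TRPM7 promoter peak stood alone at rank 7759, the pair in TRPM3 intron 22 ranked 10004, and the TRPM6 promoter peak ranked 16463.

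CpG content was compared over the RefSeq promoter windows of 300 bases, since many promoters lie in CpG-rich sequence. The measure is the number of CG dinucleotides over the number expected from the C and G content. Over all RefSeq windows it had a median of 0.849 (quartiles 0.718 and 0.957) in the 14791 that overlapped a peak and 0.278 (0.145 and 0.539) in the 20325 that did not. There were 18 windows for 7 members, and TRPM5 was not matched. None covered the internal start sites near the promoter peaks of TRPM3 and TRPM8. The 3 windows in a peak had values of 1.19 at TRPM7, higher than 99.3% of all windows, 0.850 at TRPM6 and 0.586 at TRPM4. The TRPM4 value was below the lower quartile (0.718) of windows that overlapped a peak. Among windows in no peak, the 2 of TRPM1 had 0.0728 and 0.341 and the 6 of TRPM8 had 0.0437 to 0.324. TRPM6 also had windows in no peak, with 0.487 and, at its canonical start site, 0.368. CpG-rich windows without a peak were also present, at the outermost RefSeq start site of TRPM2 (0.944, GC content 70.3%) and at that of TRPM3 (0.786, GC content 71.0%). The TRPM2 window (chr21:44349891-44350190, plus strand) is printed as the most CpG-rich window of the family without a peak, with its CACGTG match in capitals.

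TRPM2 outermost promoter: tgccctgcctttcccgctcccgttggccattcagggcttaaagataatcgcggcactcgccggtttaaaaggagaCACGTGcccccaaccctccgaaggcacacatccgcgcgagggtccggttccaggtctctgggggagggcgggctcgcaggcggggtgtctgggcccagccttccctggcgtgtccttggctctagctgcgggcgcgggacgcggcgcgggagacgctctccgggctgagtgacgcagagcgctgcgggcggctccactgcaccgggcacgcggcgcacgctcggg

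**Figure D4:**
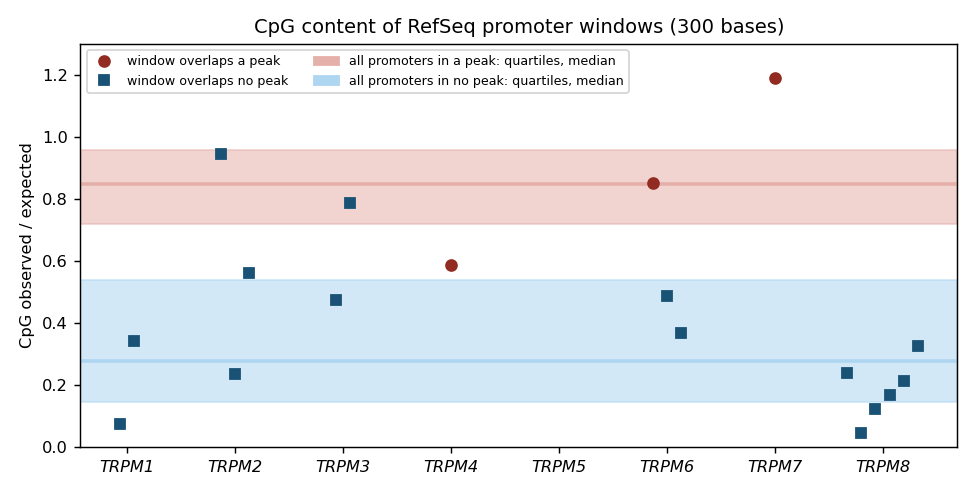
CpG observed over expected in the 18 RefSeq promoter windows of 7 TRPM genes, with circles for windows that overlap a peak and squares for the rest, over the quartiles and medians of all windows in a peak (red band) and in no peak (blue band). TRPM7 (1.19) stands above the red band, and the squares at 0.944 for TRPM2 and 0.786 for TRPM3 fall within it.

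Motifs were searched on both strands in the central 300 bases of each peak. They were TGACGTCA, the site of ATF/CREB factors, the flexible form TGANNTCA, which includes it, the AP1 site TGAGTCA, and the E-boxes CATGTG and CACGTG. TGACGTCA was in 0 of the 20 family peaks beside 0.637% of all peaks, and TGAGTCA in 0 beside 3.97%. TGANNTCA was in 3 of 20 (15%) beside 12.7%, all of them in TRPM3: the internal promoter, the intron 20 peak and an intron 22 peak. CATGTG was in 3 of 20 (15% beside 12.2%), which were flank peaks of TRPM4 and TRPM5, and CACGTG in 2 (10% beside 5.10%), which were the TRPM7 promoter peak and a flank peak of TRPM5. Over whole peaks, the counts were 0, 7, 2, 7 and 3 in the order given, beside 2.58, 40.8, 16.8, 39.5 and 20.4% of all peaks. In the central 300 bases, each share differed from that of the list by less than a single peak adds to the family's share. Over whole peaks, the shares of TGANNTCA, TGAGTCA and CACGTG were below those of the list by somewhat more than that.

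In the 18 promoter windows of the members, TGACGTCA and TGANNTCA were in none, beside 1.85% and 11.5% of all 35116 RefSeq windows. No window covered the internal start sites near the promoter peaks of TRPM3 and TRPM8, and TRPM5 had no window. The TRPM3 internal promoter peak, which holds TGANNTCA, was thus outside this scan. TGAGTCA was in 1 window, of TRPM6, beside 4.95%. CATGTG was in 4 windows beside 11.1%, both of TRPM1, 1 of TRPM2 with 5 matches (chr21:44353371-44353670) and 1 of TRPM8. CACGTG was in 3 windows beside 7.26%, 1 each of TRPM2, TRPM7 and TRPM8. Windows of a gene can overlap, and of these only the TRPM7 window was in a peak.

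The wider TRP family and the known partners of the members were listed for comparison. Peaks of the listed genes were not checked for start sites of neighbouring genes. Of 19 other TRP channel genes, 7 had a promoter peak (36.8%), beside 63.4% of all protein-coding genes. Examples were the cation channel gene TRPV2 (2030 bases), the lysosomal channel gene MCOLN1 (widest peak 1450 bases) and the polycystin gene PKD2 (1180 bases). TRPV1, which encodes the heat and capsaicin receptor, the calcium channel genes TRPV5 and TRPV6, and TRPA1, which encodes an irritant receptor, had neither a promoter nor a body peak. Genes of magnesium transport, related in role to TRPM6 and TRPM7, had a promoter peak in 10 of 11 cases (90.9%), all but SLC41A2. These were the CNNM1 to CNNM4 transport mediators, SLC41A1 and SLC41A3, MAGT1, the mitochondrial channel MRS2, and NIPA1 and NIPA2, with widths from 950 bases at CNNM4 to 2930 bases at NIPA2. These counts moved with peak width. With the widest 50% of peaks, 6 of 11 magnesium transport genes and 3 of 19 other TRP genes had a promoter peak, beside 49.0% of protein-coding genes. The outermost start sites of SLC41A3 and NIPA1 lay 16.9 and 12.7 kb from a peak, so both met the rule through other start sites.

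Partners of TRPM1 in retinal ON bipolar cells had a promoter peak in 3 of 8 cases (37.5%). These were GPR179, GNB5 and GNAO1, of which GNAO1 encodes a G protein alpha subunit used in many neurons, and the receptor GRM6 and the scaffold genes NYX and LRIT3 had none. Partners of TRPM5 in taste cells had one in 2 of 9 cases (22.2%), TAS1R1 and ITPR3. Both partner shares stand beside 63.4% of all protein-coding genes. The receptor genes TAS1R2 and TAS1R3, the phospholipase gene PLCB2 and the channel genes CALHM1 and CALHM3 had none.

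**Figure D5:**
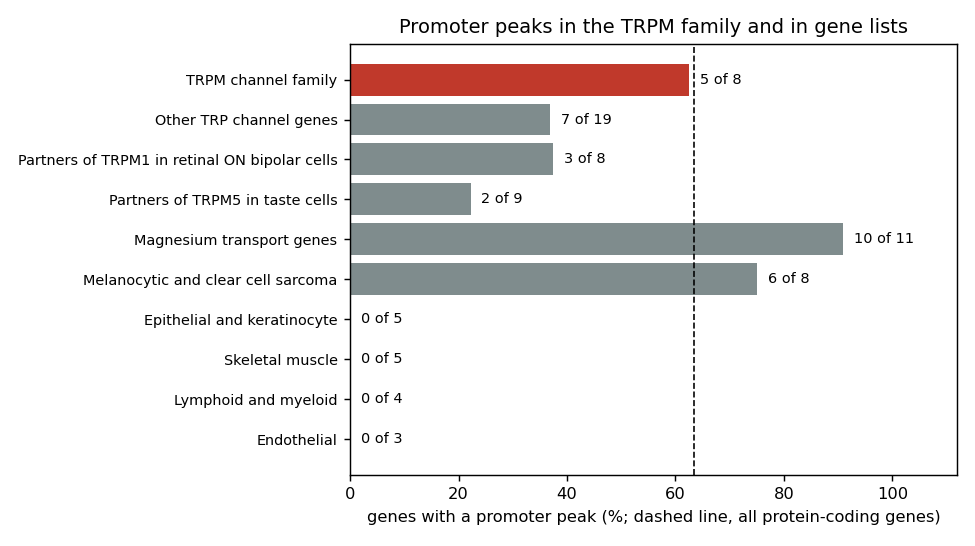
Bars give the percent of genes with a promoter peak in the TRPM family and in each gene list, with the counts beside them and the share of all protein-coding genes (63.4%) as a dashed line. The TRPM family (5 of 8) lies at the line, magnesium transport genes (10 of 11) above it, and other TRP genes (7 of 19) below it.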

How the data were processed

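SU-CCS-1 chromatin was sequenced after H3K27ac ChIP (3 samples) or as input (3 samples), and groups were read from the titles. Per the labels and the methods, the authors used BWA-MEM (BWA 0.7.10-r789) for alignment to hg38, took out duplicates with samtools, called broad peaks over input with MACS2 2.2.6 and left out ENCODE denylist regions. The deposited file is 1 list of intervals (chromosome, start, end and name, converted here to positions counted from 1), on a grid of 10 bases with no interval under 400 bases. It holds no signal, score or count, and whether reads or peaks were merged is not given in the sources used here. Depth, and with it precision, is unknown, and width also depends on how broad calling joins enriched stretches.

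Intervals were compared with GENCODE version 44 in Python 3.11.15 with numpy 2.4.6 (figures, matplotlib 3.10.9). Promoter windows and microRNAs came from RefSeq (GRCh38.p14). Windows were taken by gene symbol, and all 18 member windows equalled the hg38 sequence. Overlap, stitching and motif functions were checked on simulated intervals and sequence. The members and lists were chosen with earlier results of these data known. Named genes were all members with every peak, hosted genes, genes with a start site within 3 kb of a member's peak, the listed genes (some are counted but not reported here by name), and the 2 genes above and 2 below TRPM3 by bases of body in peaks. No test was run. Stitching ranked regions by summed width because no signal is given. Alternatives changed the promoter window, flank, transcripts, peak widths, stitching and motif window, and that of the canonical start site alone was chosen after seeing the data.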

Additional observations from a re-analysis of the deposited data

How the results depend on the processing

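Of 60 alternatives over 21 results, 40 stayed within 1.5 times the count or share and 20 moved it. The 40 include the body shares of TRPM1, TRPM2 and TRPM5, which were 0%. Their alternatives only removed bases or peaks and so could not move them. The family's 5 genes with a promoter peak became 2 (TRPM4 and TRPM7) with the widest 50% of peaks, 0 with the widest 25%, and 3 with the canonical start site alone, a setting chosen after seeing the data. The count over all protein-coding genes, 12701, became 9810 with the widest 50% and 5384 with the widest 25%. The 20 family peaks became 11 without the flanks, 10 with the widest 50%, and 10 without peaks near another gene's start site. The member beside a stitched region past the slope-1 point, TRPM5, was lost (0 genes) once peaks lying entirely inside 2.5 kb windows around start sites were dropped. Fewer peaks or start sites entered each of these by construction. The share of the TRPM4 body in peaks was 0.0813%, and that of TRPM7 0%, without bases near start sites of other genes. To which gene the acetylation of these 2 intervals belongs was not tested. By position, the TRPM4 interval contained 5 TRPM4 start sites, the canonical one among them, and the HRC start site lay 1.69 kb outside it. The TRPM7 interval contained 2 TRPM7 start sites, including the canonical one. It also contained a start site of ENSG00000288645, which is annotated within TRPM7 on the same strand.

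No paired analysis was possible because no value of the list belongs to any replicate, and for the same lack no replicate was left out. Without counts the reliability of the narrowest peaks, such as those of TRPM6 and TRPM8, is unknown, and an absent peak is only a locus below the cutoff or removed after calling.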
